A study of Rattus norvegicus with 8 samples.

Results

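The nuclear factor I (NFI) genes Nfia, Nfib, Nfic and Nfix encode a small family of transcription factors, and they were followed here in the outflow veins of rat arteriovenous fistulas (AVFs). The 4 genes were taken by their names from the 32623 genes that the count files list, and all 4 were measured well enough to be tested. They were picked because Nfib separated the treatment groups completely in these same libraries, so the values between treatments are a description and carry no test. AVFs had been made in Sprague Dawley rats of both sexes by joining the epigastric vein to the femoral artery, and a nanofiber scaffold was wrapped around the vein at surgery. In the BAPN group (3 females and 1 male) the scaffold released β-aminopropionitrile, a drug that blocks lysyl oxidases, the enzymes crosslinking collagen and elastin fibers, and in the vehicle group (2 females and 2 males) the same scaffold carried no drug. The 8 veins, 1 per rat, were collected 21 days later, and ribosomal RNA-depleted total RNA of the whole vein was sequenced.

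NFI proteins bind DNA as dimers of the same or of different members, through a conserved N-terminal domain, while the C-terminal part activates or represses transcription. Their classical target is a palindrome of the half-site TTGGC and its reverse complement, separated by 5 free bases. NFI factors are best known from development. Nfia is required for glial differentiation, Nfib for lung maturation, Nfic for the growth of tooth roots and Nfix for the switch from embryonic to fetal muscle gene expression. Mesenchymal cells of many tissues also express them.

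The sequence around the annotated starts of the 4 genes is shown because the members had lower values together, so that a reader can see which letters their windows share. RefSeq (assembly GRCr8) gives 1 window per gene of 250 bases before and 50 after a start, although it lists 10 transcripts for Nfia, 14 for Nfib, 4 for Nfic and 12 for Nfix. Within each window, the stretch of 30 bases around the match to GGGCGG, the core of the Sp1-type GC box, is printed with the match in capitals. For Nfic, the match nearest to the start is shown.
Nfia, chr5:117557055-117557084, plus strand: ggcggcgcgagcGGGCGGcggccgtgcggt
Nfib, chr5:102020051-102020080, minus strand: gaggaaggtgggGGGCGGggggtgtggaga
Nfic, chr7:8933084-8933113, plus strand: ggaggagcgggaGGGCGGctgcaaaaatga
Nfix, chr19:40260239-40260268, plus strand: gggccgcgggccGGGCGGgcgccgcgcggc

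The matches began 213 bases before the start in Nfia, 123 in Nfib, 73 in Nfic and 88 in Nfix. Nfic held 5 matches and each of the other genes 1, and 33.1% of all 33469 rat windows of this length held at least 1 on either strand. Among the 8969 tested genes with a window the share was 64.4%. No NFI window held the half-site TTGGC on either strand, which 45.8% of all windows did. CCAAT, whose reverse complement can share bases with TTGGC, was also in none of the 4 windows and in 37.5% of all windows. The windows of Nfia (68.0% G or C), Nfic (66.7%) and Nfix (86.0%) were richer in G and C than the median window (51.7%), and that of Nfib was not (51.0%). The ratio of observed to expected CpG was between 0.901 in Nfib and 1.17 in Nfix, against a median of 0.392 over all windows. Of the 8969 tested genes, 4580 (51.1%) held the half-site. Of those 4580, 15.2% had an FDR below 0.05 between treatments, against 15.9% of the 8969. These letters describe the windows and say nothing of binding.

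BAPN libraries held 45039451 to 52241007 counted reads and vehicle libraries 19548203 to 22442050, a gap of 2.01 times between the nearest libraries of the groups. Depth and treatment therefore cannot be told apart by design. Nfib, the NFI gene with the fewest reads, had 316 to 1109 reads in every library. After all libraries were thinned to the smallest total its log2 fold change was -1.97. Random thinning keeps the expected share of reads of each gene, so this value cannot separate depth from treatment. Expression is given in CPM (reads of a gene per 1e6 reads of the library, scaled by the TMM method), and a mean ± SD covers the 4 rats in a group. Log2 fold changes are those of BAPN against vehicle, with the standard error (SE) of limma-voom. A gene is called here when its FDR in edgeR, adjusted over all 11682 genes whose base mean reached 100, was below 0.05. Of these genes, 9.25% were called with lower and 7.5% with higher expression in BAPN-treated veins.

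All 4 NFI genes were lower in BAPN-treated veins, and for each of them every BAPN library lay below every vehicle library. The drop was deepest for Nfib, at 25.6% of its vehicle level, and smallest for Nfia, at 51.7%. Such a complete separation with lower values in BAPN was found in 11.9% of all tested genes (12.7% with higher values and 24.7% in either direction), and all 4 members passed the call threshold in the lower direction against the 9.25% of all genes. Since the family was chosen on this contrast, these counts describe it and are no evidence of their own. In a whole vein, fewer cells that express a gene and less RNA of that gene per cell cannot be told apart.

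Nfib (ENSRNOG00000009795) was at 51.9, 23.1, 29.8 and 39.3 CPM in Vehicle 1 to 4 and at 10.3, 11.1, 7.29 and 8.24 CPM in BAPN 1 to 4. All BAPN libraries were low and close together, the vehicle libraries were spread, and the groups were far from overlapping. The mean was 36.0 ± 12.5 CPM with vehicle and 9.22 ± 1.75 CPM with BAPN (SD, n = 4 each). This gave a log2 fold change of -1.97 (SE 0.27). Only 0.437% of the tested genes had a lower log2 fold change.

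Nfix (ENSRNOG00000002983) was at 129, 67.7, 91.3 and 178 CPM in Vehicle 1 to 4 and at 50.2, 48.4, 26.6 and 37.4 CPM in BAPN 1 to 4. It had the widest spread of the 4 genes in both groups, with Vehicle 4 at 2.63 times the level of Vehicle 2 and BAPN 1 at 1.89 times that of BAPN 3. The means were 117 ± 48.2 and 40.6 ± 11.0 CPM (SD, n = 4 each), and the log2 fold change was -1.52 (SE 0.31).

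Nfic (ENSRNOG00000004505) was at 87.1, 79.4, 72.4 and 130 CPM in Vehicle 1 to 4 and at 57.4, 48.5, 35.6 and 40.05 CPM in BAPN 1 to 4. Vehicle 4 stood above the other vehicle libraries, which lay close to each other. The means were 92.2 ± 25.9 and 45.4 ± 9.63 CPM (SD, n = 4 each), and the log2 fold change was -1.02 (SE 0.21).

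Nfia (ENSRNOG00000006966) was at 67.5, 41.9, 57.5 and 63.0 CPM in Vehicle 1 to 4 and at 31.1, 35.5, 26.9 and 25.4 CPM in BAPN 1 to 4. Its groups came closest, with 41.9 CPM in the lowest vehicle library against 35.5 CPM in the highest BAPN library. The means were 57.5 ± 11.2 and 29.7 ± 4.53 CPM (SD, n = 4 each), and the log2 fold change was -0.95 (SE 0.17). CPM values are not corrected for transcript length, so the levels of the 4 genes are not ranked against each other.

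**Figure D1:**
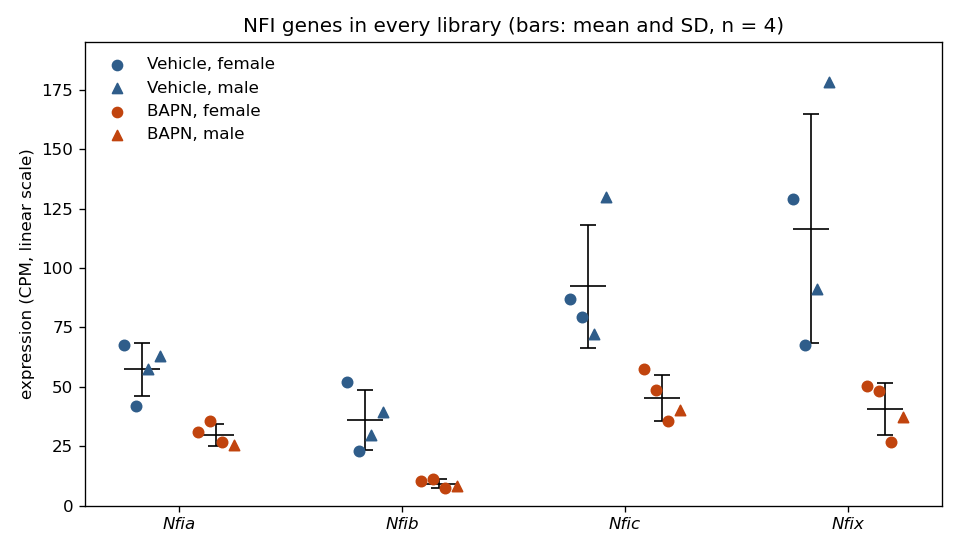
Expression of the 4 NFI genes in CPM on a linear axis, with 1 point per library (circles for females, triangles for males, blue for vehicle and orange for BAPN) and black bars for the mean and SD of 4 rats. For every gene the orange points lie below the blue points, with the highest BAPN and the lowest vehicle library at 35.5 and 41.9 CPM for Nfia, 11.1 and 23.1 for Nfib, 57.4 and 72.4 for Nfic and 50.2 and 67.7 for Nfix.

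The order of the libraries was partly shared between members. Within the vehicle group, Vehicle 2 was the lowest library for Nfia, Nfib and Nfix, whereas Nfic was lowest in Vehicle 3. Vehicle 1 was the highest library for Nfia and Nfib, and Vehicle 4 for Nfic and Nfix. Within the BAPN group, BAPN 3 was the lowest for Nfib, Nfic and Nfix, and BAPN 4 for Nfia. As a measure of likeness, the log2 CPM of each gene was centred on its own mean over the 8 libraries, and the root mean square (RMS) difference between the centred profiles was taken. Nfia and Nfic were the closest members (0.27 log2 units), and Nfib and Nfic were the farthest apart (0.55). Members were not in general each other's nearest genes. Of the other tested genes, 29 (0.248%) were nearer to Nfib than Nfix was (0.34), whereas 4117 (35.2%) were nearer to Nfia than Nfib was (0.52, against a median of 0.60 over all genes). The number nearer was 1932 (16.5%) for Nfia and Nfix, 439 (3.76%) for Nfia and Nfic, 395 (3.38%) for Nfib and Nfic and 813 (6.96%) for Nfic and Nfix. Taken within each library, the log2 difference of Nfia minus Nfib was 0.98 larger in the BAPN group (SD 0.13 among BAPN and 0.25 among vehicle libraries), and that of Nfia minus Nfic was 0.07 larger (SD 0.22 and 0.37). The family therefore changed by unequal amounts, with Nfib losing more than Nfia or Nfic, as a description of the contrast that chose it.

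**Figure D2:**
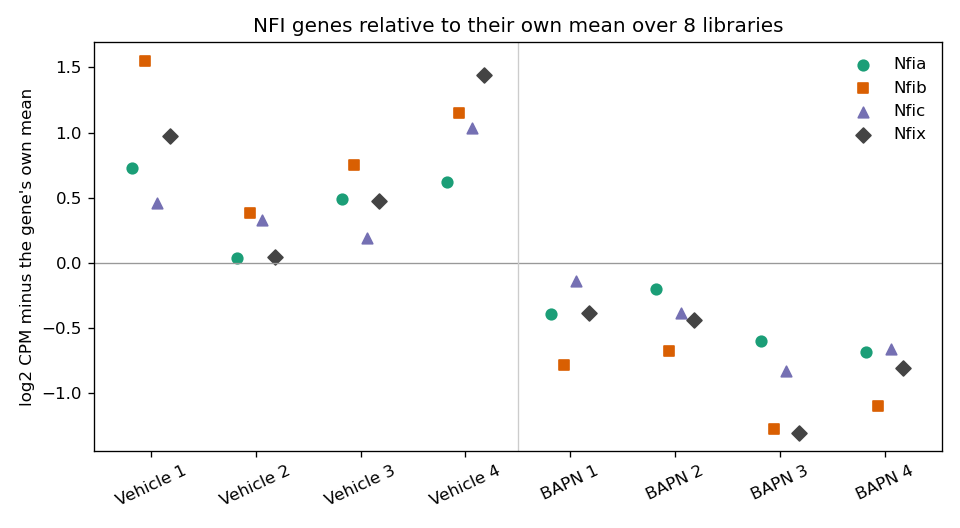
Log2 CPM of each NFI gene minus its own mean over the 8 libraries, by library, with 1 symbol per gene. All symbols lie above 0 in the vehicle libraries, where Nfia and Nfix in Vehicle 2 come closest to it (0.04 and 0.05), and all lie below 0 in the BAPN libraries, where Nfic in BAPN 1 comes closest (-0.14).

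The log2 fold changes stayed below 0 whichever rat was left out, although the calls of Nfic and Nfix were lost without 1 of them. Over the 8 fits lacking 1 rat, Nfib ranged from -2.13 to -1.74, that of Nfix from -1.71 to -1.24, that of Nfic from -1.16 to -0.81 and that of Nfia from -1.08 to -0.86. Without Vehicle 1 the log2 fold changes were -1.05 for Nfic and -1.47 for Nfix, and 2 members, Nfia and Nfib, were called. Over the whole table, 397 genes were called without Vehicle 1, in place of 1957. Among females alone (3 BAPN and 2 vehicle rats) the log2 fold changes were -1.97 for Nfib, -1.24 for Nfix, -0.82 for Nfic and -0.81 for Nfia, and no member kept its call, where 89 genes were called in all.

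**Figure D3:**
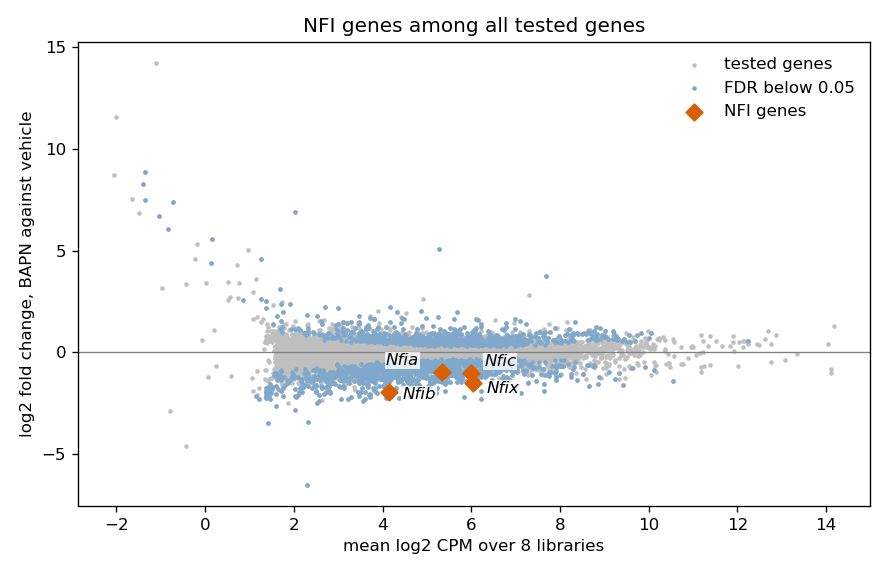
Log2 fold change of BAPN against vehicle over the mean log2 CPM of the 8 libraries for the 11682 tested genes (grey; blue where the FDR was below 0.05), with the NFI genes as orange diamonds. The 4 genes lie in the range of well-measured genes, at log2 fold changes between -1.97 and -0.95.

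Sex was not used to choose the genes and could be tested. In a model with treatment and sex, the difference of males minus females was -0.04 (SE 0.19) for Nfia, -0.16 (SE 0.29) for Nfib, 0.07 (SE 0.24) for Nfic and 0.20 (SE 0.34) for Nfix on the log2 scale. None of these passed edgeR's test (unadjusted p between 0.576 and 0.83, adjusted p of 1 for each), with 5 females and 3 males. Over all tested genes 1 was called between sexes (0.00856% of genes), named AABR07039356.2 in the files and chosen here after its values were seen, with 221 at an unadjusted p below 0.05 (1.89%) and 14 called by DESeq2. The change of the treatment difference between sexes rested on a single BAPN male and was also not called for any member (edgeR adjusted p between 0.701 for Nfia and 0.97 for Nfib). Its size was -0.43 (SE 0.37) for Nfia, -0.09 (SE 0.65) for Nfib, -0.52 (SE 0.47) for Nfic and -0.61 (SE 0.69) for Nfix. For this interaction edgeR called 0 genes of 11682, with 1442 at an unadjusted p below 0.05, and DESeq2 called 445.

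NFI genes are expressed beside other transcription factors of mesenchymal and smooth muscle cells, and 40 of a list of 44 such factors were tested. Of these, 18 were called with lower and 0 with higher expression in BAPN-treated veins, or 45.0%, against 16.8% of all tested genes called in either direction. The median log2 fold change of the 40 was -0.71, against 0.02 over all tested genes, and 39 of the 40 values were below 0. The list was written with results of these libraries known. Without Vehicle 1 the number called was 6, without BAPN 3 it was 8, without BAPN 4 it was 10, and without BAPN 1 or Vehicle 4 it was 11.

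The called factors with the highest expression were Prrx1, Klf2, Ebf1, Mef2d and Zeb1. Prrx1, a homeobox factor of fibroblasts, was at 118 to 271 CPM in vehicle and 43.3 to 93.0 CPM in BAPN libraries (log2 fold change -1.26, SE 0.30, edgeR FDR 0.0248). Klf2, the flow-induced factor of endothelial cells, was the most even among them, at 115 to 143 CPM against 68.6 to 77.7 CPM (-0.88, SE 0.10, edgeR FDR 0.00413). Ebf1, a factor of adipocyte precursors, B cells and perivascular cells, was at 68.2 to 142 and 49.4 to 68.6 CPM, with a slight overlap (-0.999, SE 0.22, edgeR FDR 0.0201). Zeb1, a repressor known from epithelial-mesenchymal transition, was at 55.5 to 99.8 and 27.7 to 46.7 CPM (-1.003, SE 0.20, edgeR FDR 0.0171), and Mef2d, a myogenic factor, had a log2 fold change of -0.54 (SE 0.15, edgeR FDR 0.0379). Of these 5, Klf2 kept its call whichever rat was left out, and Zeb1 lost it only without Vehicle 1 (FDR 0.0525). Prrx1 and Ebf1 were each called in 5 of the 8 and Mef2d in 2, with the highest FDRs at 0.0612 (without Vehicle 1), 0.0574 and 0.0994 (both without BAPN 3). Zeb2 (-0.43, SE 0.16, edgeR FDR 0.098) and Klf4 (-0.36, SE 0.19, edgeR FDR 0.193) had the highest expression among those not called. In the plot of both sets, Nfib had the lowest log2 fold change and Nfix the third lowest, after Ebf2 (-1.73, SE 0.18).

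**Figure D4:**
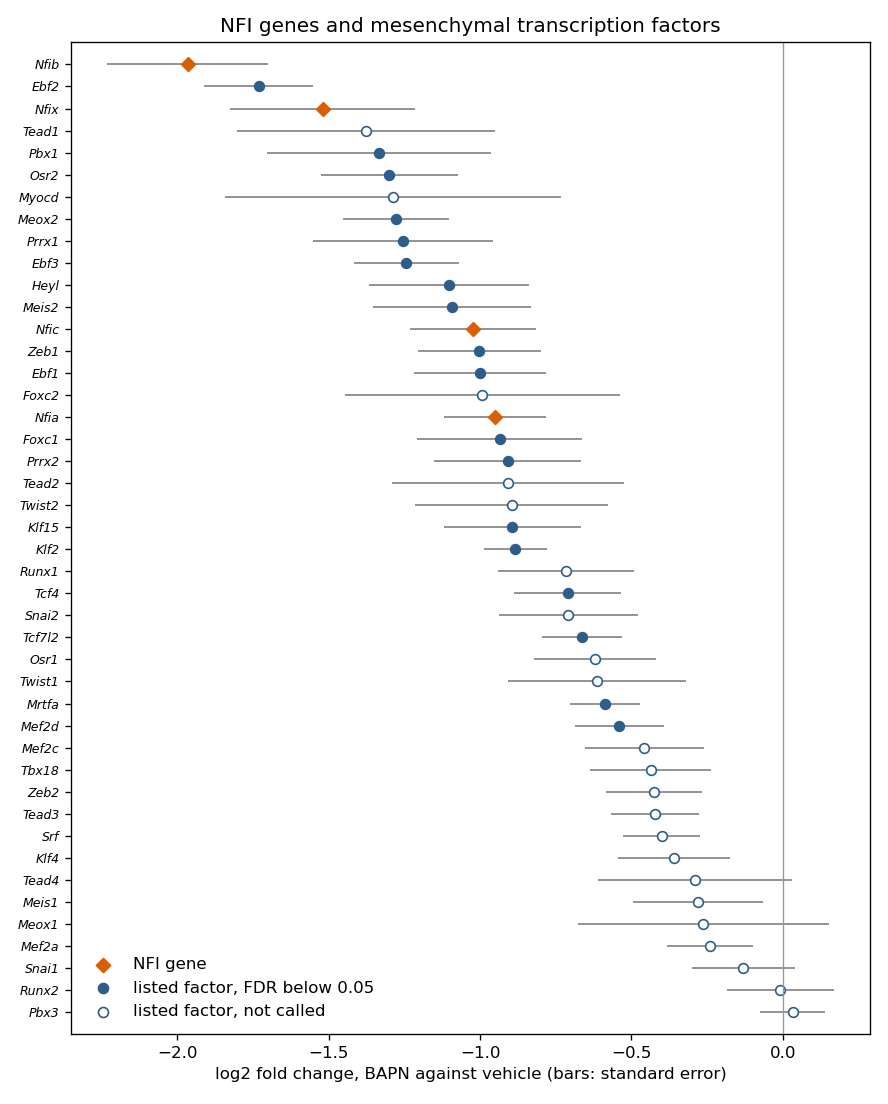
Log2 fold changes of BAPN against vehicle with their standard errors, sorted, for the 4 NFI genes (orange diamonds) and the 40 tested mesenchymal and smooth muscle factors (circles, filled where called). The NFI genes lie between -1.97 and -0.95, and the other factors between -1.73 (Ebf2) and 0.03 (Pbx3).

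Among 18 genes whose products act with NFI factors or upstream of them, 12 were tested and 3 were called, all lower (25%, against 16.8% of all tested genes called in either direction and 9.25% called lower). Their median log2 fold change was -0.37. Ski, a repressor of SMAD signaling that also binds NFI proteins, was at 119, 103, 100 and 160 CPM in Vehicle 1 to 4 and at 86.9, 76.0, 49.5 and 59.9 CPM in BAPN 1 to 4 (-0.82, SE 0.21, edgeR FDR 0.0299). Its call was lost without BAPN 3 (FDR 0.073) and in 3 of the other fits lacking 1 rat (without BAPN 4, Vehicle 1 or Vehicle 4). Notch1, the receptor that induces Nfia in neural precursors, had a log2 fold change of -0.40 (SE 0.12, edgeR FDR 0.048) and kept its call in 1 of the 8, with the highest FDR of 0.122 without Vehicle 1. Rbpj, the DNA-binding partner of Notch, was not called (0.07, SE 0.18, edgeR FDR 0.806), nor was Jund (-0.58, SE 0.22, edgeR FDR 0.104). The number called from this list was 1 without BAPN 3, Vehicle 1 or Vehicle 4.

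Of 16 genes described elsewhere as regulated by NFI factors, 11 were tested and 2 were called, both lower (18.2%, median log2 fold change -0.36), close to the 16.8% of all genes. Apcdd1, a Wnt inhibitor induced by Nfia in glia, fell from 28.5 ± 5.38 to 7.48 ± 2.06 CPM (SD, n = 4 each; -1.93, SE 0.22, edgeR FDR 0.00413) and stayed called whichever rat was left out. Hes1, a Notch target that NFI factors repress in neural progenitors, was at 16.3 to 27.8 CPM in vehicle and 8.79 to 13.4 CPM in BAPN libraries (-0.97, SE 0.22, edgeR FDR 0.0244), and it kept its call in 3 of the 8 (highest FDR 0.0652, without BAPN 3). The more abundant Col1a1 (-1.002, SE 0.41, edgeR FDR 0.118) and Mmp2 (-0.55, SE 0.32, edgeR FDR 0.235) were not called. The number called from this list was 4 without Vehicle 2 and 1 without BAPN 3, BAPN 4, Vehicle 1, Vehicle 3 or Vehicle 4.

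Of 10 tested CCAAT-box binding factors outside the NFI family, 2 were called, a share of 20% near the 16.8% of all tested genes. Cebpb was called lower (-0.56, SE 0.15, edgeR FDR 0.0347) and Cebpz higher (0.48, SE 0.11, edgeR FDR 0.0247), and the median log2 fold change was 0.12. Cebpb, an inflammatory and adipogenic factor, was called in 2 of the 8 fits lacking 1 rat (highest FDR 0.0768, without BAPN 4) and Cebpz in 3 (0.0634, without Vehicle 1). From this list 0 were called without BAPN 2, BAPN 4, Vehicle 1 or Vehicle 3 and 1 without BAPN 1, BAPN 3 or Vehicle 2, whereas DESeq2 called 3 with all rats, as many as had an unadjusted edgeR p below 0.05. Ybx1, a cold-shock domain protein, was at 297 ± 29.3 CPM with vehicle and 409 ± 68.0 CPM with BAPN (0.46, SE 0.15, edgeR FDR 0.0644), and Cebpa was at 135 ± 52.2 and 132 ± 24.3 CPM (SD, n = 4 each; -0.04, SE 0.28, edgeR FDR 0.929).

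By the same RMS measure, the 5 named genes with the profile nearest to each member were drawn from all tested genes. Nearest to Nfib were Irs1 (RMS 0.17 log2 units), Mest (0.23), Ltbp4 (0.24), Apcdd1 (0.28) and Myorg (0.29). Irs1, the insulin receptor substrate, was at 33.3 ± 9.84 CPM with vehicle and 8.59 ± 1.97 CPM with BAPN (SD, n = 4 each), almost the values of Nfib itself. Nearest to Nfix were Cbx6 (0.13), Gxylt2 (0.14), Jcad (0.15), Arhgef17 (0.15) and Shroom4 (0.16), to Nfic were Ski (0.11), Dip2a (0.12), Ccnd2 (0.13), Nav3 (0.13) and Magi1 (0.14), and to Nfia were Ttc23 (0.10), Pou6f1 (0.12), Hspa12b (0.12), Bcl9 (0.13) and Arhgap29 (0.13). Cbx6 encodes a Polycomb protein, Ccnd2 a cyclin and Bcl9 a cofactor of β-catenin. The likeness was taken over 8 libraries that share the treatment groups, so it follows the treatment difference.

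The genes beside the NFI genes on the chromosome showed smaller differences than the members. The family was chosen on this contrast and the neighbours by position, so the gap between them is a description. The 2 tested genes before and the 2 after each member were taken in the order of RefSeq, with up to 18 RefSeq genes between. By edgeR 0 of these 16 neighbours were called (2 had an unadjusted p below 0.05, and DESeq2 called 1), against 16.8% of all tested genes. Their log2 fold changes ranged from -0.90 (Frem1, beside Nfib, SE 0.49, edgeR FDR 0.231) to 0.44 (Gadd45gip1, beside Nfix, SE 0.16, edgeR FDR 0.0737). Zdhhc21, the nearest tested gene after Nfib, was at 6.83 ± 2.66 CPM with vehicle and 6.38 ± 1.32 CPM with BAPN (SD, n = 4 each), and Ncln, before Nfic, was at 134 ± 15.3 and 120 ± 4.91 CPM.

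**Figure D5:**
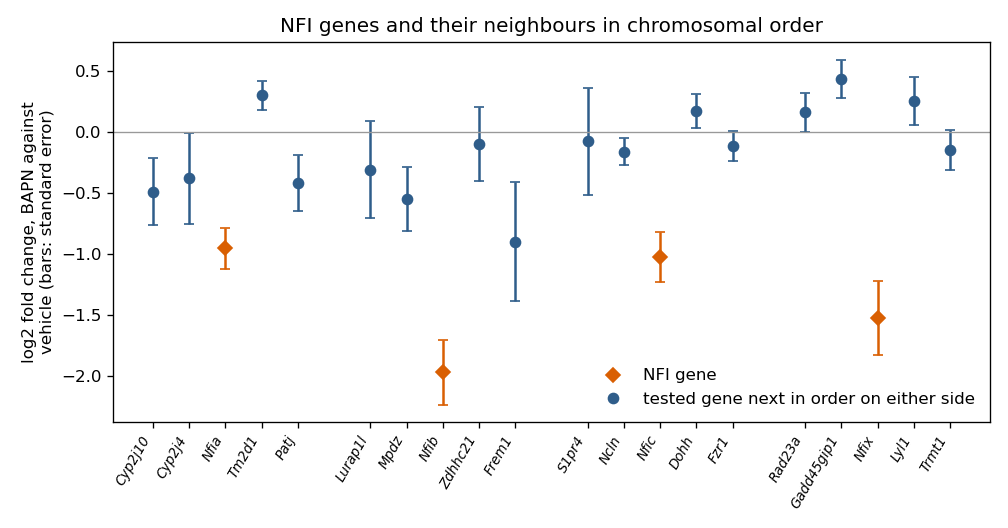
Log2 fold changes of BAPN against vehicle with their standard errors for each NFI gene (orange diamonds) and the 2 tested genes on either side of it in chromosomal order (blue circles). The 16 neighbours lie between -0.90 and 0.44, above the NFI gene they flank. The NFI family was chosen on this contrast and the neighbours were not.

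Markers of other cell types are given beside the NFI values, and their shares called are to be set against the 16.8% of all tested genes. The summed expression of 9 tested macrophage markers was 6060 to 22900 CPM in the vehicle and 28200 to 41600 CPM in the BAPN libraries, without overlap, although edgeR called 0 of the 9 (2 had an unadjusted p below 0.05, and DESeq2 called 2), and Cd68 was among those not called (0.54, SE 0.36, edgeR FDR 0.261). Lyz2, which makes up most of that sum, was not called either (1.28, SE 0.49, edgeR FDR 0.0722), at 3860 to 19500 and 24100 to 38000 CPM. Vehicle 2, the vehicle library lowest in Nfia, Nfib and Nfix, had the highest macrophage sum of its group, and Vehicle 4, highest in Nfic and Nfix, had the lowest. BAPN 3, lowest in Nfib, Nfic and Nfix, had the highest sum of all 8 libraries. The place of BAPN 3 and the gap between groups rested on Lyz2. Without it, a sum added after seeing the data, the other 8 markers reached 4050, 3230, 3540 and 3460 CPM in BAPN 1 to 4 and 2810, 3450, 2260 and 2200 CPM in Vehicle 1 to 4, so that the groups overlapped and BAPN 1 was highest, while Vehicle 2 and Vehicle 4 remained the highest and lowest vehicle libraries. Of 9 smooth muscle markers 6 were called (66.7%), all lower, with sums of 3650 to 6780 CPM in vehicle and 1820 to 4720 CPM in BAPN libraries. The most abundant, Tagln (-0.64, SE 0.33, edgeR FDR 0.217) and Acta2 (-0.75, SE 0.44, edgeR FDR 0.26), were not called. Of 11 fibroblast markers 2 were called lower (18.2%) by edgeR and 6 by DESeq2, and 10 of the 11 log2 fold changes were below 0 (median -0.64). Their sums, led by Col1a1 and Col3a1, were 28900 to 95500 and 23700 to 37000 CPM. In this fibroblast sum Vehicle 2 was the lowest and Vehicle 4 the highest vehicle library, and BAPN 3 was the lowest of all 8 libraries. The smooth muscle sum was also lowest in BAPN 3 and highest in Vehicle 4, but its lowest vehicle library was Vehicle 1. Of 8 endothelial markers 2 were called lower (25%) by edgeR and 4 by DESeq2, with sums of 826 to 1570 and 495 to 668 CPM. Tie1 was not called (-0.32, SE 0.16, edgeR FDR 0.198), and Vwf, which was, stood at 768, 269, 106 and 161 CPM in Vehicle 1 to 4, with BAPN libraries between 58.5 and 102 CPM. Pecam1 was not analysed here. The smooth muscle count was 2 with sex as a covariate and 3 with the replicate number as a block, and it fell to 2 without BAPN 3, BAPN 4 or Vehicle 3 and to 3 without BAPN 1 or Vehicle 4. The fibroblast count was 1 without any one of BAPN 3, BAPN 4, Vehicle 1, Vehicle 3 and Vehicle 4 and 5 without Vehicle 2, and the endothelial count was 1 without BAPN 1, BAPN 2, BAPN 3, BAPN 4 or Vehicle 1 and 4 without Vehicle 2. The part of these cell types in the NFI values was not tested.

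Of the T cell markers 2 of 8 were called, both higher (25%, median log2 fold change 1.17), namely Cd8a (1.33, SE 0.33, edgeR FDR 0.0281) and Cd2 (1.39, SE 0.31, edgeR FDR 0.0138). Cd4, by far the most abundant of the list, was at 350 ± 77.3 CPM with vehicle and 334 ± 54.2 CPM with BAPN (SD, n = 4 each; -0.07, SE 0.19, edgeR FDR 0.811), and Lck was not called (0.85, SE 0.37, edgeR FDR 0.0964). The T cell sums overlapped, at 303 to 515 CPM in vehicle and 374 to 458 CPM in BAPN libraries. Cd4 makes up most of these sums, so they say little of the other markers. Of the 8 log2 fold changes only 1, that of Cd4, was below 0.

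Of the B and plasma cell markers 2 of 5 were called, both higher (40%, median 2.55). They were Mzb1, at 0.866 ± 0.662 CPM with vehicle and 21.1 ± 17.7 CPM with BAPN (4.59, SE 3.67, edgeR FDR 0.0346), and Cd79b, at 0.913 ± 0.713 and 5.41 ± 3.33 CPM (SD, n = 4 each; 2.55, SE 1.31, edgeR FDR 0.0458). The most abundant, Sdc1 (0.26, SE 0.24, edgeR FDR 0.42) and Xbp1 (0.16, SE 0.12, edgeR FDR 0.395), were not called, and the sums overlapped, at 267 to 381 and 340 to 620 CPM. Of 6 adipocyte markers (median -1.17) 1 was called, Plin1 (16.7%; -2.13, SE 0.74, edgeR FDR 0.0443), and the number called was 1 without BAPN 1, 2 without Vehicle 4 and 0 without any one of the other 6 rats. Fabp4, by far the most abundant, had the opposite sign, with 1040 ± 478 CPM with vehicle and 1690 ± 851 CPM with BAPN (SD, n = 4 each; 0.70, SE 0.46, edgeR FDR 0.269), and Adipoq was not called (-1.61, SE 0.56, edgeR FDR 0.0647). The adipocyte sums overlapped, at 515 to 1770 and 1120 to 2980 CPM. DESeq2 called 4 each of the T cell and adipocyte markers and 3 of the B and plasma cell markers. By edgeR 0 were called of 8 Schwann cell and nerve markers (1 with an unadjusted p below 0.05, 0 by DESeq2), 0 of 4 neutrophil and mast cell markers (0 and 0) and 0 of 2 skeletal muscle markers (1 and 1). The most abundant of these lists were Pmp22 (0.31, SE 0.20) and Ncam1 (-0.56, SE 0.30), Kit (0.08, SE 0.35) and Csf3r (0.25, SE 0.37), and Tnnt3 (0.09, SE 0.28) and Acta1 (-2.50, SE 1.03). The T cell count was 1 without BAPN 1, BAPN 2, BAPN 3 or Vehicle 4, and the B and plasma cell count was 3 without BAPN 4, 1 without Vehicle 3 and 0 without any one of the other 6 rats. Of the keratinocyte markers Krt5, Krt14, Krt15, Krt1, Krt10 and Trp63 were not among the tested genes. Of the 2 tested, 1 was called higher (50%), Dsg3 (8.27, SE 3.34, edgeR FDR 0.0297), and Sfn was not called (0.63, SE 0.49, edgeR FDR 0.351). Dsg3 was at 19.2 and 13.7 CPM in BAPN 1 and 2 and at 0.3 CPM or less in each of the other 6 libraries. The keratinocyte count was 1 without BAPN 3 or BAPN 4 and 0 without any one of the other 6 rats. In every library the smooth muscle marker Acta2 was at 375 CPM or more and the fibroblast marker Col1a1 at 10300 CPM or more. The macrophage marker Marco was at 0 reads in all libraries.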

How the data were processed

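Ribosomal RNA-depleted total RNA of 8 rat outflow veins was measured, 4 with BAPN and 4 with vehicle scaffolds, grouped by the sample labels. The authors deposited raw counts per Ensembl rat gene, 1 file per library, and the counts were used as deposited. Their processing notes name bcl2fastq 2.17, Trim Galore and STAR. The counting tool, strand setting and genome build are not given in the sources used here. The test set was every gene whose DESeq2 base mean reached 100, the filter of the study, with edgeR 4.0.16 (TMM, quasi-likelihood F test, Benjamini-Hochberg adjustment), with limma 3.58.1 (voom) for standard errors and DESeq2 1.42.0 as an alternative, in R 4.3.3. Log2 CPM used a prior count of 2. Interaction and sex were fitted on all 8 libraries. On simulated counts of 11682 genes edgeR recovered 165 of 200 genes changed by 1.5 on the log2 scale, with 8 false calls among the unchanged genes.

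The members and gene lists were chosen with earlier results of these data known. Named from each list of factors, partners, reported targets and CCAAT-box binders were up to 5 called genes per direction and up to 2 uncalled genes, those of highest expression, with 5 nearest profiles and 4 neighbours per member. Of each marker list the 2 members of highest expression were named, and Cd8a, Cd2, Mzb1, Cd79b, Plin1 and the markers listed as untested, at 0 or with their lowest level were chosen after their values were seen where they fall outside this. Promoter sequences came from RefSeq (GRCr8), in which 93.1% of tested genes had a name. No pair of libraries agreed within counting noise (chi-square per degree of freedom at least 68.58). Alternatives were other scalings, filters and tools, a term for sex, the female rats by themselves, a block on replicate number, thinning, and each library left out. A correction for coding length was not run, since no lengths of the files' build were used here. The values of 1 gene that the naming rule selects are not reported here.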

Additional observations from a re-analysis of the deposited data

How the results depend on the processing

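The log2 fold changes of the NFI genes moved by less than the spread between replicates in all 18 alternatives for each gene, and every value stayed below 0. They ranged from -2.13 to -1.74 for Nfib, from -1.71 to -1.24 for Nfix, from -1.16 to -0.81 for Nfic and from -1.08 to -0.81 for Nfia. The replicate numbers of the labels did not pair the rats (correlations of same-numbered deviations from -0.265 to 0.269, with 1 of 4 above 0.1). With the replicate number as a block, 1 member (Nfib) was called, and the counts were 556 for all genes, 4 for the mesenchymal factors, 1 for the partners, 1 for the reported targets and 0 for the other CCAAT-box binders. Over all genes 1957 were called, against 3202 with DESeq2, 930 with sex as a covariate and 89 among females alone, and 397 to 2215 with each rat left out. The mesenchymal factors gave 18 calls, 9 with sex as a covariate and 6 to 21 with each rat left out. The partners gave 3, 6 with DESeq2, 1 with sex as a covariate and 1 to 3 with each rat left out, and the reported targets gave 2, 4 with DESeq2, 1 with sex as a covariate and 1 to 4. The other CCAAT-box binders gave 2, 1 with sex as a covariate, 1 without a filter on low counts and 0 to 2 with each rat left out. With sex as a covariate and with the block, the marker counts were 2 and 3 for smooth muscle, 1 and 2 for fibroblasts, 2 and 1 for endothelium, 1 and 0 for T cells, 0 and 0 for B and plasma cells and 4 and 0 for adipocytes. The causes were not tested. Of the 12 called genes named from the lists, 3 (among them Klf2 and Apcdd1) were called in every fit that left out 1 rat and with the block, 6 with sex as a covariate and 0 among females alone. The sex differences of the members were not called in any of the 10 alternatives. With each rat left out they ranged from -0.23 to 0.15 for Nfia, from -0.39 to 0.17 for Nfib, from -0.22 to 0.29 for Nfic and from -0.14 to 0.46 for Nfix. With other size factors, 5 of the 5 nearest genes of each member were shared. Library depth followed treatment, and 4 rats per group limit the precision. A correction for coding length was not run.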
